A study of Mus musculus with 25 samples.

Results

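The comparison described here asks how the transcripts of CLA-treated fat cells differed between 8 and 12 h of treatment. 3T3-L1 adipocytes are mouse preadipocytes that are differentiated into fat cells in culture, and the labels name CLA as the treatment and LA as the control. The CLA-treated cultures of 12 h gave 4 arrays and those of 8 h gave 3, chosen by their labels, so that the comparison is about 7 of the 25 arrays of the series. The LA cultures of the same hours, also 4 arrays at 12 h and 3 at 8 h, are given beside them. The labels leave both abbreviations unexplained. In work on fat cells LA is usually linoleic acid and CLA its conjugated isomers, and neither dose nor isomer is named in the sources used here. Within a group the labels call the arrays biological replicates, and all come from 1 cell line.

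Conjugated linoleic acid is known in cultured adipocytes for an early stress and growth-factor type response and for a later loss of lipid-storage gene expression. Early genes such as Fos and Egr1 are transcribed within minutes of signalling through the ERK kinases and are held in check by phosphatases and Sprouty proteins that the same pathway induces. The adipocyte programme itself is kept up by PPARγ and C/EBPα, which drive the genes of lipid uptake, synthesis, storage and release.

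Levels are normalised intensities in arbitrary units, and a difference is 12 h minus 8 h on the scale of log2(intensity + 16), with its standard error. Throughout, a 2-fold change means 1 unit on this scale. In intensity itself 1 unit is more than 2-fold, most of all for dim genes, whose differences the added 16 compresses. Mean intensities as deposited were 134.4 to 148.5 in the CLA arrays of 8 h and 93.79 to 143.3 in those of 12 h, and the ratio of the actin 3′ to 5′ probe sets was 1.43 to 3.17 over the 7. The arrays of the series fell into 5 sets that the labels do not name. The replicate 2 arrays of both times lay in 1 set and the replicate 3 arrays in another. CLA replicate 1 lay in different sets at 8 and 12 h, and CLA 12 h replicate 4 lay in a set of dim arrays that holds no CLA array of 8 h. The fit therefore carries a term for the sets. Through that term the LA arrays and the CLA arrays of other hours also enter the fitted CLA difference. Each difference was also read directly within the replicate 2 pair and the replicate 3 pair.

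Adipocyte markers were the brightest of the cell type markers. Their summed intensity was 23400 to 39100 at 8 h and 21020 to 30060 at 12 h, and Fabp4, the fatty acid binding protein of fat cells, lay between 7393 and 9342 in the 7 arrays. The leptin gene Lep had a median of 0. Preadipocyte and fibroblast markers summed to 7065 to 17720 at 8 h and 7353 to 15880 at 12 h, which overlap. Macrophage markers summed to 142.9 to 273.7 and 102.1 to 336.9 at the 2 times, with Itgam and Ptprc at a median of 0. Endothelial markers summed to at most 22.34 with Pecam1 at 0 in all 7 arrays, and skeletal muscle markers to at most 46.91 with Myog at 0 in all 7. In bulk RNA, fewer cells of a type and less RNA per cell cannot be told apart.

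No gene passed the test between 8 and 12 h of CLA. Of 9913 genes tested with limma, 0 (0%) had a Benjamini-Hochberg adjusted p under 0.05, and the lowest adjusted p was 0.879. At an unadjusted p under 0.05 there were 532 genes (5.37%), of which 280 (2.82%) were higher at 12 h and 252 (2.54%) lower. The median size of a difference was 0.12 and the median standard error 0.16. By the fit 5349 of the 9913 genes were higher at 12 h and 4564 lower, the background for such counts in the lists below. For 9566 genes (96.5%) the whole 95% interval lay within a 2-fold change in either direction.

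The same fit called many genes between treatments at these hours. CLA differed from LA in 625 genes at 8 h (6.3%), of which 371 (3.74%) were higher under CLA and 254 (2.56%) lower. At 12 h it differed in 1182 (11.9%), of which 589 (5.94%) were higher and 593 (5.98%) lower. These comparisons share the CLA arrays with the one between times. A difference of more than 2-fold was found for 168 genes between CLA and LA at 8 h, for 165 at 12 h, and for 5 between the 2 times of CLA. In the LA controls 0 genes (0%) passed between 8 and 12 h by limma, with a lowest adjusted p of 0.249 and 739 genes (7.45%) at an unadjusted p under 0.05.

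**Figure D1:**
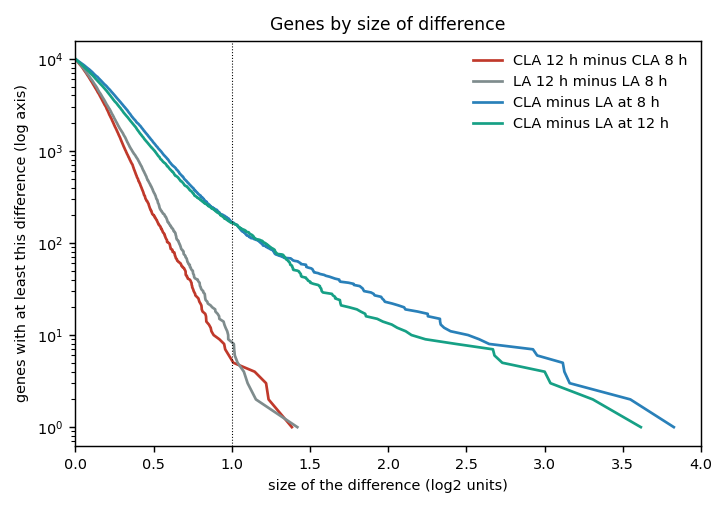
Number of genes (log axis) whose difference is at least the size on the x axis (log2 units), for 4 comparisons of the same 9913 genes. The 2 curves between 8 and 12 h, under CLA and under LA, drop away before the curves of CLA against LA, and at the dotted line of a 2-fold change 5 genes are left for CLA 12 h minus CLA 8 h against 165 for CLA minus LA at 12 h.

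The pairs gave little common order. Over the 9913 genes the differences in the replicate 2 pair and in the replicate 3 pair had an SD of 0.272 and 0.278 and a Pearson r of 0.15 (Spearman 0.16), a description across genes, which are not independent replicates. They had the same sign for 56.7% of genes. Of all genes, 2832 (28.6%) were higher at 12 h in both pairs and 2788 (28.1%) were lower in both. All 4 arrays of 12 h lay above all 3 of 8 h for 90 genes (0.908%) and below them for 38 (0.383%).

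The 5 genes that differed by more than 2-fold were singled out after their values were seen. Hmga2, an architectural chromatin protein of proliferating mesenchymal cells, had intensities of 197, 309.8 and 438.9 at 8 h and 774.8, 1192, 849.1 and 581.5 at 12 h in order of replicate. All 12 h arrays lay above all 8 h arrays, and the difference was 1.22 ± 0.43 with a 95% interval from 0.31 to 2.13. Btg2, an antiproliferative early gene and p53 target, had intensities of 404.4, 969.9 and 407.3 at 8 h and 193.7, 586.1, 284.1 and 117.8 at 12 h. Its groups overlapped only through replicate 2 of 12 h, with a difference of -1.24 ± 0.53. Hnrnpl, a splicing regulator, had 138.5, 243.8 and 211.1 at 8 h and 136.7, 98.48, 127.6 and 25.97 at 12 h, all 12 h arrays below all 8 h arrays. Its difference was -1.38 ± 0.35 under CLA and -1.42 under LA, so that the same shift stood in the controls. Utf1 and Tmem229b, both near or under an intensity of 50 in most arrays, differed by 1.15 ± 0.57 and 1.01 ± 0.43, with overlapping groups. The adjusted p of limma was 0.879 for each of the 5.

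Genes of smallest p that had the same sign in both pairs were listed to 15 in each direction, and none is called changed. On the lower side, Phlda1, which growth-factor signalling induces, had intensities of 335.5, 502.6 and 288.1 at 8 h and 275.3, 355.6, 133.3 and 232.1 at 12 h. The 12 h arrays were mostly the lower ones but overlapped with 8 h, and the difference was -0.83 ± 0.19, with -0.48 and -1.03 in the pairs. Noct, a phosphatase of NADPH with a daily rhythm in many tissues, had 1282, 1628 and 454.7 at 8 h and 742.5, 863.5, 335.3 and 375.1 at 12 h. Replicates 2 and 3 were both lower at the later time (-0.90 and -0.42) with the groups overlapping, and the fitted difference was -0.85 ± 0.22. Slc25a25, a mitochondrial carrier of ATP and phosphate, differed by -0.92 ± 0.26, with intensities of 73.55, 215.5 and 64.91 at 8 h and 26.32, 91.25, 36.95 and 126.4 at 12 h. Replicates 2 and 4 of 12 h lay within the 8 h range and replicates 1 and 3 below it, and 2 other probe sets of the gene gave -0.89 and -0.79.

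The rest of the lower side spanned several functions. Nfil3, a leucine zipper repressor tied to the clock, had 168.5, 304.6 and 182.4 at 8 h and 75.4, 145.4, 134.5 and 205.4 at 12 h, with a difference of -0.75 ± 0.19. Only replicate 4 of 12 h reached into the 8 h range. Sort1, the sorting receptor sortilin of the GLUT4 storage vesicles, differed by -0.54 ± 0.15, with -0.32 and -0.003 in its 2 other probe sets. The autophagy scramblase gene Atg9a differed by -0.55 ± 0.12, the smallest p of all genes named. Bcl9l, a coactivator of β-catenin, differed by -0.81 ± 0.19 and Mta2, a subunit of the NuRD deacetylase complex, by -0.57 ± 0.14. Mxd1, a MAX partner that opposes MYC, Lmf1, which matures lipoprotein lipase, and Zfp385a, Irf2bp2, Rnpepl1 and 1700017B05Rik lay between -0.64 and -0.39. The other probe set of Mxd1 gave 0.07. Plain group means of Lmf1 and 1700017B05Rik differed by only -0.07 and -0.05. Of these 15 genes Atg9a, Bcl9l, Zfp385a and Lmf1, besides Hnrnpl, were also lower in LA by 0.4 or more.

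On the higher side the sizes were smaller. Ankrd10, an ankyrin repeat gene, had 100.5, 96.69 and 84.96 at 8 h and 280.3, 140.9, 150.9 and 90.48 at 12 h, with a difference of 0.64 ± 0.17. Replicate 4 of 12 h lay within the 8 h range and the other 3 above it, and 2 other probe sets of the gene gave 0.08 and 0.23. Cers6, a ceramide synthase, had 260.7, 276.3 and 180.1 at 8 h and 413.6, 418, 283.8 and 179 at 12 h, a difference of 0.70 ± 0.21. Here too the array of replicate 4 was the lowest of its group. Psma4, a subunit of the proteasome core, had 1130, 881 and 914.2 at 8 h and 1112, 1304, 1177 and 934.7 at 12 h, and differed by 0.38 ± 0.11 with overlap.

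Others on that side had varied roles. Exosc7, a subunit of the RNA exosome, differed by 0.40 ± 0.12, Wtap, of the RNA methyltransferase complex, by 0.37 ± 0.12, and Zranb2, a splicing factor, by 0.52 ± 0.16. The differences of Zranb2 and Wtap depended on the term for the array sets. Plain group means of Zranb2 were 8.36 at 8 h and 8.33 at 12 h on the log2 scale, and those of Wtap 9.017 and 9.019. Both pairs were higher at 12 h for Zranb2 (0.18 and 0.62) and for Wtap (0.40 and 0.25). Zc2hc1a had the smallest p of the higher genes with 0.74 ± 0.18, beside 0.41 in LA and 0.17 in its other probe set. Ppif, the cyclophilin of the mitochondrial permeability transition, differed by 0.38 ± 0.10, with 0.76 in its other probe set. The calcium-binding Sri, the SAGA subunit Supt20, the mitochondrial import gene Mtx3, and Enox1, Zfp820, C330018D20Rik and Rab27b lay between 0.37 and 0.68. Other probe sets gave 0.07 for Sri, 0.05 and 0.30 for Supt20 and 0.155 for C330018D20Rik. Rab27b, a GTPase of vesicle secretion, was at most 22.04 in any of the 7 arrays. Zfp820 was at most 29.53 in the same arrays, so both genes were dim there.

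**Figure D2:**
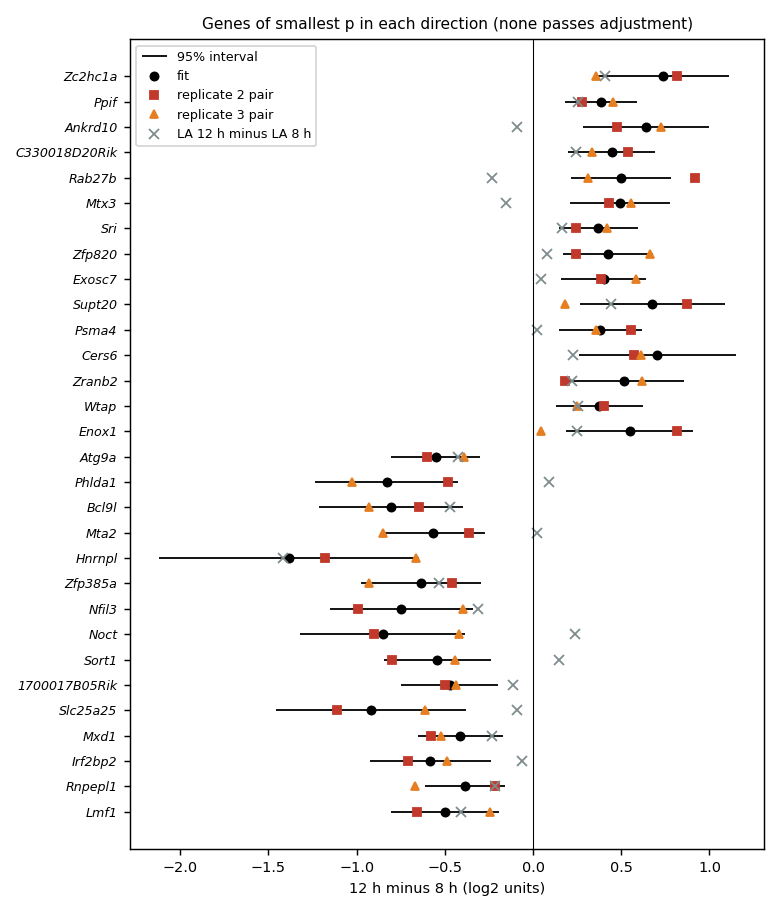
Differences between 12 and 8 h (x axis, log2 units) for the 15 genes of smallest p in each direction: black points are the fit under CLA with its 95% interval, squares and triangles the replicate 2 and 3 pairs, crosses the LA controls. The crosses of Hnrnpl (-1.42) and Atg9a (-0.43) lie near their black points, and those of Phlda1 (0.09) and Noct (0.24) lie on the other side of 0.

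Early genes were measured as 20 members of a list of 22. None passed, 18 of the 20 were lower at 12 h by the fit and 2 higher, and the median difference was -0.39 beside 0.02 over all genes tested. The pairs differed in this: the median was 0.02 in the replicate 2 pair and -0.27 in the replicate 3 pair, and 8 of the 20 were lower in both pairs and 0 higher in both. Without CLA 12 h replicate 2 the fitted median was -0.60. Under LA the median was 0.10. By its median the list lay above the control at both times, with CLA minus LA of 1.34 at 8 h and 0.82 at 12 h. Called higher were 15 members at 8 h and 12 at 12 h, beside 3.74% and 5.94% of all genes. At 12 h 1 member was called lower.

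Egr1, a zinc finger early gene, had intensities of 2013, 1771 and 1410 at 8 h and 2323, 1913, 934 and 732 at 12 h. Replicates 1 and 2 of 12 h lay with the 8 h arrays or above and replicates 3 and 4 lay below. The fitted difference was -0.80 ± 0.39, against 0.11 and -0.59 in the pairs. LA 12 h replicate 1, whose actin ratio of 5.67 was the highest of the 14 arrays of these hours, read 2019 for Egr1 while the other LA arrays of both times read 175.9 to 338.3. The fit draws on that array, since it shares a set with CLA 12 h replicate 1, and without it the median of the list was -0.36.

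Klf2, a Krüppel-like factor that restrains adipocyte differentiation, had 171.2, 145.3 and 163 at 8 h and 51.86, 121.9, 103.6 and 161.3 at 12 h, and differed by -0.84 ± 0.26. Replicates 1, 2 and 3 of 12 h lay below the 8 h range and replicate 4 lay within it. Fosl2, an AP-1 subunit, had 341.9, 192.3 and 207 at 8 h and 145.3, 135.8, 166.3 and 150.8 at 12 h. Its groups did not overlap, and the difference was -0.53 ± 0.18 beside -0.10 in LA. Fos, a classical AP-1 subunit, was higher at 12 h in the replicate 2 pair (0.69) and lower in the replicate 3 pair, with a fitted difference of -0.64 ± 0.42.

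Atf3, the stress-induced ATF/CREB factor, had one of the large differences between CLA and LA and none resolved between the times. Its intensities were 458, 636.7 and 289.9 at 8 h and 206.1, 574.1, 270.9 and 819.2 at 12 h. Replicates 1 and 4 of 12 h marked both ends of the range, and the difference was -0.49 ± 0.35, with -0.15 and -0.09 in the pairs. CLA minus LA was 3.83 ± 0.37 at 8 h and 3.62 ± 0.31 at 12 h, both past the threshold of limma.

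Feedback genes of the ERK pathway were lower in 11 of 14 members by the fit, none of them called, with a median of -0.24. Again the replicate 2 pair had a median of 0.01 and the replicate 3 pair -0.28, and without CLA 12 h replicate 1 the fitted median was -0.13. Spred2, a membrane inhibitor of RAF activation, differed by -0.38 ± 0.13, with -0.28 and -0.52 in the pairs. Spry4, a Sprouty inhibitor of receptor signalling, differed by -0.51 ± 0.21, but its 2 other probe sets gave -0.02 and 0.12. Plain group means of Spred2 and Spry4 differed by only -0.07 and -0.09. The ERK phosphatase gene Dusp4 differed by -0.56 ± 0.24. Dusp4 had 376.9, 402.6 and 112 at 8 h and 174.9, 280.2, 106.1 and 311.1 at 12 h, which overlap.

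Among EGF receptor ligands and receptors, 5 were tested and 0 passed. Ereg, which encodes the ligand epiregulin, had 246, 812.8 and 410.2 at 8 h and 184.3, 964.4, 352.2 and 141.2 at 12 h. Replicate 2 was the brightest at both times, the groups overlapped, and the difference was -0.61 ± 0.54. CLA minus LA for Ereg was 3.55 at 8 h and 3.31 at 12 h. The ligand gene Hbegf differed by 0.41 ± 0.30 and the receptor gene Egfr by -0.21 ± 0.15.

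Targets of ATF4 and the integrated stress response divided into 16 higher and 18 lower of 34, with a median of -0.02 and 0 called. The median had no stable sign: it was 0.009 without CLA 8 h replicate 2, 0.01 without CLA 12 h replicate 2, -0.04 and -0.05 without replicates 1 and 3 of 8 h, -0.008 without CLA 12 h replicate 3 and -0.18 with the replicate block. Amino acid genes had the smallest p. Gpt2, an alanine aminotransferase, had 139.6, 257.3 and 242 at 8 h and 120.4, 296.2, 311.7 and 509.6 at 12 h, and differed by 0.48 ± 0.16 with 0.19 and 0.35 in the pairs. The groups overlapped through replicate 1 of 12 h, and 3 other probe sets of Gpt2 gave -0.06 to 0.18. Aldh1l2, of mitochondrial folate metabolism, differed by 0.41 ± 0.14. The glycine transporter gene Slc6a9 differed by 0.56 ± 0.21, with 0.08 in its other probe set. Ppp1r15a (GADD34), which directs the phosphatase that ends the response, differed by -0.50 ± 0.23. Cytosolic aminoacyl-tRNA synthetase genes were higher in 13 of 18, beside 5349 of 9913 over all genes, with a median of 0.05. That median was 0.02 without CLA 8 h replicate 3 or CLA 12 h replicate 4, 0.11 without CLA 12 h replicate 1 and 0.17 with the replicate block. Of the list 4 and 7 members were called higher under CLA than LA at 8 and 12 h.

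NRF2 targets, which detoxify electrophiles and rebuild glutathione, were higher in 10 of 25 and lower in 15, with a median of -0.07. It was -0.03 without CLA 8 h replicate 2, -0.02 without CLA 8 h replicate 3, -0.03 without CLA 12 h replicate 1 and -0.26 with the replicate block. The medians in the pairs were of the other sign, 0.03 and 0.02, with 10 members higher in both pairs and 9 lower in both. Hmox1, the haem oxygenase, had intensities of 3223, 2116 and 1659 at 8 h and 409.5, 1635, 1396 and 2111 at 12 h. Replicate 1 of 12 h was far below the other 6 arrays, and the difference was -0.88 ± 0.29, but -0.37 and -0.25 in the pairs. CLA minus LA for Hmox1 was 2.51 at 8 h and 1.66 at 12 h, called at both times. Sqstm1, the autophagy adaptor p62, differed by -0.47 ± 0.19 and by -0.13 and -0.15 in the pairs. Nqo1, the quinone reductase, differed by 0.38 ± 0.16 and Srxn1, the sulfiredoxin gene, by -0.17 ± 0.25 (0.13 and 0.06 in the pairs).

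Cytosolic heat shock genes had 12 of 18 members lower and a median of -0.10, which was -0.18 without CLA 8 h replicate 3, -0.05 without CLA 8 h replicate 1, -0.06 without CLA 12 h replicate 1 and -0.04 with the replicate block. Of the list 9 members members were called higher under CLA than LA at each time. The smallest p belonged to Dnajb1, an HSP40 cochaperone, with -0.45 ± 0.22 by the fit and -0.09 and -0.17 in the pairs. ER chaperones and unfolded protein response genes divided into 10 higher and 12 lower. Their co-chaperone gene Dnajc3 differed by 0.84 in the replicate 2 pair and by -0.21 in the replicate 3 pair.

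Cytokine, chemokine and inflammatory genes had 9 of 27 members higher and 18 lower, with a median of -0.05. That median was not stable: it was -0.18 without CLA 8 h replicate 1, -0.15 without replicate 3 of 8 h, -0.003 without CLA 12 h replicate 1, -0.29 without replicate 2 of 12 h and -0.33 with the replicate block. Without 1 LA array it ran from -0.10 (LA 8 h replicate 1) to -0.02 (LA 12 h replicate 1). The pairs had medians of 0.07 and -0.09, and 8 members were higher in both and 8 lower in both. Stat3, the transcription factor of IL-6 signalling, had 294, 621.4 and 680.6 at 8 h and 285.3, 562.2, 481.9 and 359.4 at 12 h. Overlap was wide, and the difference was -0.52 ± 0.25. Nfkbia, the inhibitor of NF-κB, differed by -0.43 ± 0.24 and the acute phase gene Serpina3n by 0.34 ± 0.25. Il6 itself was not tested, since it exceeded an intensity of 32 in 1 array of 25: it read 137.3 in CLA 8 h replicate 1 and 4.087 to 20.6 in the other 6 CLA arrays.

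Prostaglandin genes were balanced, 5 higher and 5 lower of 10. Ptgs2, the inducible cyclooxygenase, had 63.2, 128.6 and 34.76 at 8 h and 111.8, 134.4, 33.04 and 19.49 at 12 h. The groups overlapped over almost their whole range, and the difference was -0.24 ± 0.33. The prostaglandin E synthase gene Ptges differed by 0.18 ± 0.14.

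Lipid-storage genes were mostly lower at 12 h in both pairs, and none passed the test. In the list of fatty acid and triglyceride synthesis 20 of 26 were lower in both pairs and 2 higher in both, against 28.1% and 28.6% of all genes. The medians were -0.38 and -0.31 in the pairs and -0.21 by the fit, and -0.61 with the replicate number as a block in place of the array sets. Without CLA 12 h replicate 2 the fitted median was -0.11. In LA the median was 0.10. CLA minus LA had a median of -0.21 at 8 h and -0.43 at 12 h, with 7 and 11 members called lower.

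Thrsp (Spot 14), a lipogenic nuclear protein that follows carbohydrate and insulin supply, had 1803, 975.8 and 322 at 8 h and 111.6, 304.9, 190.8 and 793.5 at 12 h. Both pairs were lower at 12 h, by 1.63 and 0.71 on the log2 scale, and replicate 4 of 12 h reached into the 8 h range. The fitted difference was -0.87 ± 0.31, and plain group means differed by more, -1.56. CLA minus LA was -1.48 ± 0.32 at 8 h and -2.67 ± 0.27 at 12 h, called at both, and the change of that effect was -1.19 ± 0.42 with an adjusted p of 0.998.

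Fasn, the fatty acid synthase, had 2483, 1282 and 514.5 at 8 h and 887, 740.2, 366.7 and 1156 at 12 h. Groups overlapped, with only replicate 3 of 12 h below the 8 h range. Each pair was lower at 12 h (-0.78 and -0.47), and the fit gave -0.38 ± 0.24. The acyltransferase genes Dgat1, which closes triglyceride synthesis, and Agpat2 differed by -0.38 ± 0.19 and -0.33 ± 0.21. Scd1, the stearoyl-CoA desaturase, differed by -0.28 ± 0.21 and Dgat2 by -0.40 ± 0.27. The elongase gene Elovl6 was higher in both pairs (0.37 and 0.11), as was Mogat1 (0.40 and 0.46).

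Lipolysis and droplet genes were lower by the fit in 13 of 15, with a median of -0.27 and 10 lower in both pairs. That median was -0.50 with the replicate block and -0.17 without CLA 12 h replicate 2. Lipe, the hormone-sensitive lipase, had 596.5, 803.1 and 309.1 at 8 h and 268.3, 498.3, 177.2 and 1048 at 12 h. Replicate 4 was the highest of all 7 arrays and the other 3 of 12 h lay below their 8 h counterparts, with a difference of -0.56 ± 0.23. CLA minus LA for Lipe was -0.63 ± 0.24 at 8 h, which missed the threshold, and -1.20 ± 0.20 at 12 h, which passed. The adipose triglyceride lipase gene Pnpla2 differed by -0.53 ± 0.20, with -0.47 and -0.76 in the pairs. Its activator gene Abhd5 differed by -0.23 ± 0.12, the droplet protein gene Cidec by -0.49 ± 0.26, and G0s2, an inhibitor of that lipase, by 0.30 ± 0.25.

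Markers of mature fat cells were lower in 16 of 19, with a median of -0.20, and 14 were lower in both pairs. With the replicate block the median was -0.50, and without CLA 8 h replicate 1 it was -0.10. Adipoq, which encodes adiponectin, had 9342, 6672 and 4548 at 8 h and 7106, 6046, 3692 and 6046 at 12 h. Groups overlapped, and the difference was -0.23 ± 0.16. Slc2a4, the insulin-responsive glucose transporter GLUT4, had 247.5, 56.84 and 83.46 at 8 h and 43.15, 50.08, 54.16 and 208.8 at 12 h, and differed by -0.32 ± 0.25. Its replicate 4 stood far above the other 12 h arrays. The surface hydrolase gene Apmap had the smallest p with -0.55 ± 0.19, while Angptl4, an inhibitor of lipoprotein lipase, and Pck1, of glyceroneogenesis, were higher in both pairs with 0.35 ± 0.22 and 0.29 ± 0.19 by the fit. Fabp4 differed by 0.01 ± 0.10 and Lpl, the lipoprotein lipase, by -0.03 ± 0.11.

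Of the factors of adipocyte differentiation 13 of 21 were lower in both pairs, with a median of -0.19 by the fit and of -0.105 without CLA 12 h replicate 1. Pparg had 1806, 1005 and 682.7 at 8 h and 821.4, 881.7, 600.5 and 606 at 12 h, with a difference of -0.21 ± 0.15. Each pair was lower at 12 h by a similar small step (-0.19 and -0.18), and the groups overlapped. Cebpa had 325.7, 851.2 and 286.1 at 8 h and 307.2, 576.3, 160.7 and 749.9 at 12 h, with a difference of -0.35 ± 0.18 and -0.55 and -0.77 in the pairs. The nuclear receptor gene Ppard differed by -0.45 ± 0.18, Klf5, an early differentiation factor, by -0.54 ± 0.25, and Ebf2, a factor of brown and beige fat, by 0.74 ± 0.25 at intensities of at most 38.89. Klf15, a glucocorticoid-responsive factor of mature adipocytes, was dim outside 2 arrays (126.2 in CLA 8 h replicate 1 and 140.4 in CLA 12 h replicate 4), and its difference of 0.35 ± 0.34 opposed both pairs (-0.07 and -0.08).

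**Figure D3:**
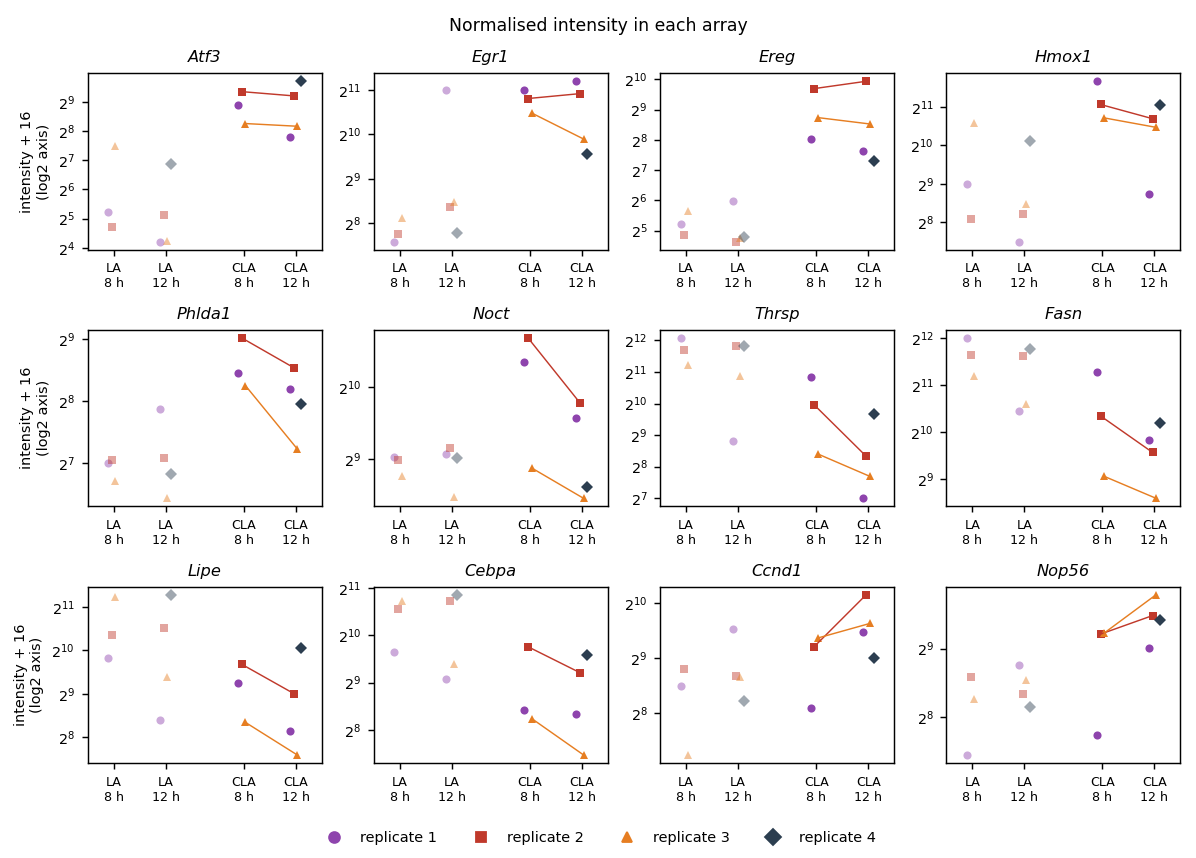
Normalised intensity plus 16 (log2 axis) of 12 genes in each LA (paler) and CLA array of 8 and 12 h, with a symbol and colour per replicate and lines that join CLA replicates 2 and 3. Atf3, Egr1, Ereg and Hmox1 lie above most LA arrays at both times of CLA, the lines of Thrsp, Fasn, Lipe and Cebpa run downward in both pairs, and the groups of the 2 CLA times overlap in all 12 panels.

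Energy metabolism was covered by several lists, in which no gene passed. Genes of the TCA cycle and respiratory chain were lower in both pairs in 21 of 32 and higher in both in 1, with a median of -0.07 by the fit, -0.22 and -0.12 in the pairs and -0.22 with the replicate block. Leaving out CLA 12 h replicate 2 brought it to -0.03, and leaving out replicate 4 to -0.13. Uqcrfs1, the Rieske iron-sulfur subunit of complex III, had 3002, 2132 and 1416 at 8 h and 1739, 1718, 1084 and 2323 at 12 h, a difference of -0.27 ± 0.13 with overlap. Every one of the 32 genes had its 95% interval within a 2-fold change. Fatty acid oxidation genes divided into 10 higher and 12 lower by the fit, with a median of -0.04 that turned to 0.01 without CLA 8 h replicate 3 and to 0.02 without CLA 12 h replicate 2.

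Glucose uptake and glycolysis genes were lower in 15 of 19, with a median of -0.20 beside -0.10 in LA. In both pairs 14 were lower and 5 higher. The fitted median was -0.40 with the replicate block, -0.10 without CLA 8 h replicate 1 and -0.12 without replicate 3 of 8 h. Slc2a1, the basal glucose transporter GLUT1, had 1753, 1131 and 1346 at 8 h and 344, 1072, 1141 and 991.6 at 12 h. Replicate 1 of 12 h was far below the other 6 arrays. The fitted difference was -0.67 ± 0.30 and the pairs gave -0.08 and -0.24. Hk2, the hexokinase of insulin-sensitive tissue, had 833.2, 587 and 547.5 at 8 h and 420.8, 425, 444 and 555.2 at 12 h. Only replicate 4 of 12 h entered the 8 h range, and the difference was -0.45 ± 0.21. Insulin signalling genes divided into 11 higher and 10 lower of 21.

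Clock genes had 14 of 17 members lower by the fit and a median of -0.10, with 4 at an unadjusted p under 0.05, all of them lower: Nfil3, Csnk1e, Rora and Nr1d1. The median was -0.22 with the replicate block, and -0.16 and -0.18 without replicate 3 of 8 h or of 12 h. Rora, a nuclear receptor that activates clock genes, had 355.6, 436.9 and 345.3 at 8 h and 139.2, 311.3, 186.5 and 94.91 at 12 h. All 12 h arrays lay below all 8 h arrays, with a difference of -0.52 ± 0.24 beside 0.27 in LA. Its plain group means differed by more, -1.10. Nr1d1, the opposing repressor REV-ERBα, had 31.58, 83.89 and 33.74 at 8 h and 18.19, 90.41, 11 and 122.3 at 12 h, and the pairs went opposite ways (0.09 and -0.88). Per2 lay between 10.66 and 30.2 in the 7 arrays and differed by -0.06 ± 0.22, and the core genes Arntl and Clock differed by -0.02 ± 0.14 and 0.04 ± 0.18.

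Ribosome biogenesis genes were the list with the most members higher. By the fit 21 of 27 were higher and 6 lower, beside 5349 and 4564 of all 9913 genes. In both pairs 15 were higher and 1 lower, and none passed. The median was 0.14, with 0.22 and 0.13 in the pairs and -0.02 in LA, and 0.08 without CLA 12 h replicate 2 and 0.22 with the replicate block. CLA minus LA had a median of 0.28 at 8 h and 0.46 at 12 h, with 5 and 16 members called higher, a difference in number of calls that was tested only gene by gene in the change of the effect, where 0 passed.

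Nop56, a core protein of the box C/D particles, had 199.5, 576 and 582.4 at 8 h and 498.7, 697.3, 864.8 and 663.5 at 12 h. Replicate 1 was the lowest at both times, the other 12 h arrays lay above the 8 h range, and the difference was 0.43 ± 0.20. Nop16 differed by 0.30 ± 0.11 and the nucleolar helicase gene Ddx21 by 0.38 ± 0.16. Rrp1b had 40.26, 65.93 and 66.4 at 8 h and 87.24, 80.14, 80.67 and 75.72 at 12 h, without overlap, and a difference of 0.29 ± 0.15.

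Cell cycle and DNA replication genes were higher in 20 of 33, beside 5349 of 9913 over all genes. Their median was 0.05 by the fit but 0.47 with the replicate block, 0.20 and -0.03 in the pairs, and 0.01 without CLA 8 h replicate 1. Without CLA 8 h replicate 3 it was 0.10, without CLA 12 h replicate 4 or LA 12 h replicate 2 it was 0.09 and 0.08, and without LA 8 h replicate 1 it was 0.03. Ccnd1, which encodes cyclin D1, had 259.3, 577.6 and 645.4 at 8 h and 692.8, 1126, 778.4 and 499.5 at 12 h. Replicate 4 lay within the 8 h range and the other 3 above it, with a difference of 0.70 ± 0.26. The replication helicase genes Mcm4, Mcm3 and Mcm2 differed by 0.58 ± 0.24, 0.43 ± 0.22 and 0.45 ± 0.25, and Mki67, a marker of cycling cells, by 0.02 ± 0.37. Proteasome subunit genes divided into 15 higher and 16 lower of 31, all with intervals within a 2-fold change, although 6 were called higher under CLA than LA at 8 h and 18 at 12 h. Interferon-responsive genes were lower in 15 of 18, with a median of -0.15 (-0.36 with the replicate block, -0.23 without CLA 8 h replicate 2 and -0.22 without CLA 12 h replicate 2), and Gbp2, a guanylate-binding protein, differed by -0.57 ± 0.20.

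Cholesterol synthesis and uptake genes were lower in 17 of 24, with a median of -0.06 by the fit and -0.35 with the replicate block. The median was -0.14 without CLA 12 h replicate 4, -0.10 without CLA 12 h replicate 1 and -0.09 without LA 12 h replicate 1. Cyp51, a demethylase of the sterol pathway, had 899.4, 1813 and 405.5 at 8 h and 441.3, 1354, 283.1 and 430.6 at 12 h, which overlap, and differed by -0.44 ± 0.23 under CLA and 0.32 under LA. Mvk, the mevalonate kinase, differed by 0.81 ± 0.37 under CLA and 0.80 under LA.

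Hypoxia-responsive genes had 5 of 19 higher and 14 lower, with a median of -0.10 by the fit and -0.40 with the replicate block. Without CLA 12 h replicate 3 it was -0.18 and without CLA 12 h replicate 2 it was -0.06. The pairs gave medians of -0.13 and 0.02, with 5 members higher in both and 9 lower in both. Bnip3, a mitophagy receptor, had 3946, 1797 and 1865 at 8 h and 787, 1259, 1776 and 1654 at 12 h. All 12 h arrays lay below all 8 h arrays, by a small margin for replicate 3. The fitted difference was -0.34 ± 0.21, and plain group means differed by more, -0.85. Glucocorticoid-responsive genes were lower in 11 of 15 by the fit. Their median was -0.13, and it was -0.04 without CLA 12 h replicate 4 and -0.07 without CLA 8 h replicate 1. The pairs gave this list medians of 0.09 and -0.13, with 5 members higher in both pairs and 5 lower in both. The p53 target and Gadd45 list divided into 10 higher and 8 lower of 18. In it the stress kinase gene Plk3 differed by -0.72 ± 0.24 under CLA and -0.83 under LA, and Sesn1, a sestrin that restrains mTORC1, by 0.59 ± 0.21. Cdkn1a, which encodes the cyclin kinase inhibitor p21, differed by -0.38 ± 0.15, with 0.06 and -0.19 in the pairs. Metallothionein and zinc transporter genes divided into 7 higher and 6 lower of 13, and the zinc exporter gene Slc30a1 differed by 0.45 ± 0.28 beside 0.70 in LA, while its plain group means differed by -0.16. None of these genes passed the test.

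Markers of preadipocytes and fibroblasts were higher in 14 of 23 by the fit, beside 5349 of 9913 over all genes. Their median was 0.10 beside 0.19 in LA, and the pairs gave 0.11 and -0.10. The collagenase gene Mmp13 had 21.26, 160.6 and 32.73 at 8 h and 24.26, 365.8, 61.66 and 104.5 at 12 h, a difference of 0.74 ± 0.49 in which replicate 2 was the highest at both times. Sparc, a matrix glycoprotein, differed by -0.30 ± 0.18. The fitted median was 0.008 without CLA 8 h replicate 1, 0.15 without replicate 3 of 8 h, 0.06 without CLA 12 h replicate 2 and 0.06 without LA 8 h replicate 1. Of the macrophage, skeletal muscle and endothelial lists 3, 2 and 0 genes were bright enough to be tested, and none passed. The part of cell composition in any of these differences was not tested.

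**Figure D4:**
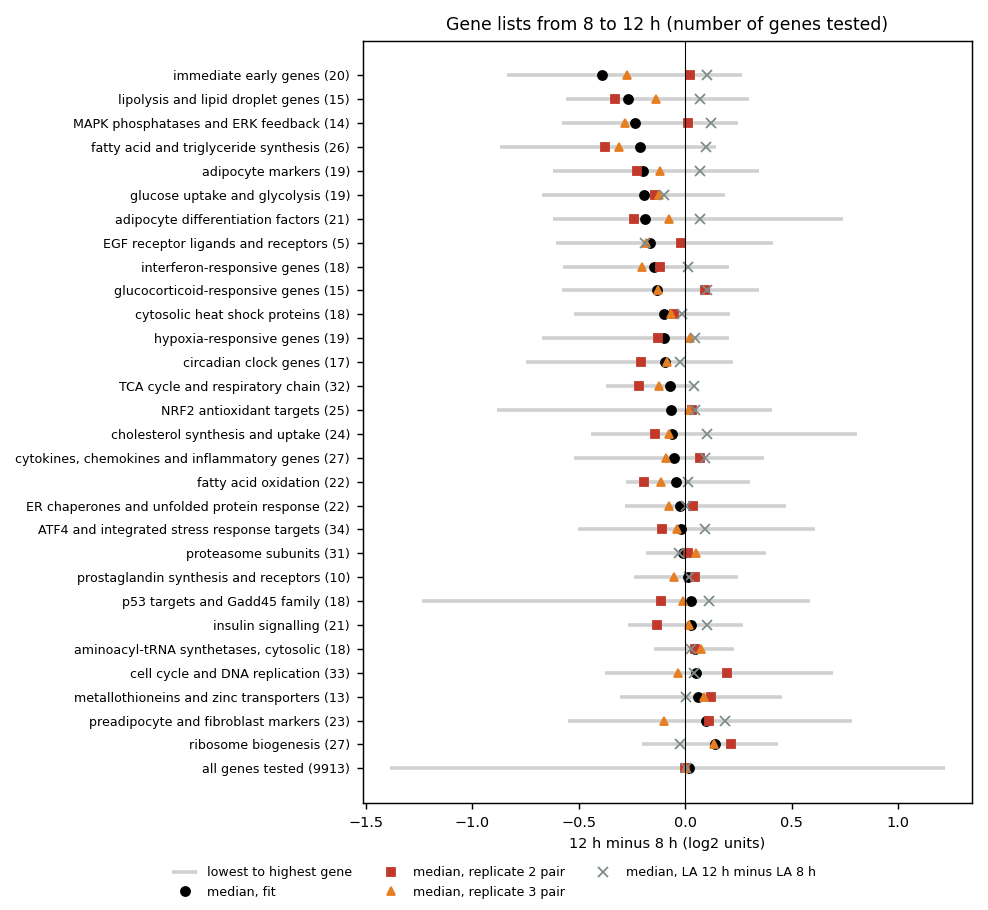
Median difference between 12 and 8 h (x axis, log2 units) of each gene list with at least 5 genes tested, with the number tested in brackets: black points are the fit under CLA, squares and triangles the replicate 2 and 3 pairs, crosses LA, and grey bars run from the lowest to the highest gene. Early genes lie lowest by the fit (-0.39) with a replicate 2 median of 0.02, fatty acid and triglyceride synthesis is low in both pairs (-0.38 and -0.31), and ribosome biogenesis lies highest (0.14).

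Whether CLA and LA cultures differed in their course from 8 to 12 h was tested as the difference of the 2 differences. Of 9913 genes 0 (0%) passed by limma, with a lowest adjusted p of 0.998, and 377 (3.8%) had an unadjusted p under 0.05. The precision was lower here, with a median standard error of 0.22, and the 95% interval lay within a 2-fold change for 86.9% of genes. Alyref, an mRNA export adaptor, had 154.7, 168.4 and 292.3 at CLA 8 h and 417, 418.8, 359.1 and 444.3 at CLA 12 h, without overlap. It differed by 0.56 ± 0.22 under CLA and -0.50 under LA. Rab27b, Mtx3, 4930503B20Rik and 2010204K13Rik were the other 4 of smallest p on the higher side, and Arid5b, Noct, Odr4, Phlda1 and Sort1 the 5 on the lower side. Noct differed by -0.85 under CLA and 0.24 under LA, and its CLA minus LA was 1.26 ± 0.23 at 8 h, which was called, and 0.17 ± 0.19 at 12 h, which was not. Arid5b, a chromatin cofactor of fat cell development, differed by -0.36 ± 0.15 under CLA and 0.41 under LA.

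Genes that differed between the treatments at 24 h, measured on other arrays, were read back at 8 and 12 h as a description, since they were chosen from the same series. At 24 h 1129 genes (11.4%) were called, 352 (3.55%) higher under CLA and 777 (7.84%) lower. Of the 777 lower ones 459 were lower at 12 than at 8 h in both pairs and 56 higher in both, with medians of -0.20 and -0.12 in the pairs and -0.09 by the fit, beside -0.003 in LA. Of the 352 higher ones 184 were higher in both pairs and 59 lower in both, with a fitted median of 0.08. None of these 1129 genes passed between 8 and 12 h.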

How the data were processed

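The authors hybridised biotin-labelled cRNA of Trizol-extracted total RNA to one-colour Affymetrix arrays, per the labels' protocols, and deposited 1 linear intensity per probe set and array. The software and any scaling are not given in the sources used here. Of the deposited intensity values 21.6% lie at or below 0. The deposited tables of treatment ratios were not used.

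The 25 arrays were quantile normalised, floored at 0 and transformed as log2(intensity + 16). Probe sets with 1 gene symbol (34958 of 45101) were kept, 1 per gene by the highest mean, and genes above 32 in at least 3 arrays were tested (9913 of 18194). A difference given for a gene is that of its kept probe set, and other probe sets of some genes differed from it. The fit used limma 3.58.1 in R 4.3.3 on all 25 arrays with 8 group means and 5 array sets. It had 13 residual degrees of freedom. The sets came from average-linkage clustering of the arrays, which used neither treatment nor time. They were drawn from the same intensities, while the standard errors and intervals treat them as known and may be too narrow for that reason. Arrays contributed unequally: weights in the CLA difference were 0.191 to 0.292 for CLA at 12 h and -0.385 to -0.235 for CLA at 8 h. Through the set term the other arrays entered it too, with weights from -0.0897 to 0.117. The largest of these were LA 8 h replicate 1 and LA 4 h replicate 1, whose actin ratio was 8.11. The script was tested on simulated data. For arrays, their number limits the precision.

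Same-numbered CLA arrays of 8 and 12 h deviated together from their group means (correlations of 0.42, 0.61 and 0.66 for replicates 1, 2 and 3). Replicates 2 and 3, read as pairs, also shared an array set at both times, and replicate 1 did not. Whether the numbers mark a shared culture was not tested. Same-numbered LA arrays did not deviate together in every case (0.65, 0.33 and -0.38). The 32 gene lists and the comparison were chosen with earlier results of these data known. Named were the 15 genes of smallest p in each direction with the same sign in both pairs, up to 4 per list by smallest p, 5 per direction for the change against LA, 14 key genes, and further list members and genes past 2-fold chosen after their values were seen. Alternatives changed the set term, block, offset, normalisation, filter, variance, probe set rule and arrays.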

Additional observations from a re-analysis of the deposited data

Results flagged for a closer look

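Of 155 named genes, 9 had 1 CLA 12 h array far from the other 3 by Dixon's ratio of the gap to the group's range. Chance alone does this in about 1 of 20 groups. Replicate 1 of 12 h was the lowest array for Per2 (ratio 0.844), the isoleucyl-tRNA synthetase gene Iars (0.89), Ptges (0.858), Slc2a1 (0.882) and Nop16 (0.89). Replicate 4 of 12 h was the lowest for Mtx3 (0.889) and the highest for Slc2a4 (0.872) and Adgre1 (0.876), the last a macrophage marker that read 116.9 there and 13.26 to 19.31 in the other 3. Replicate 3 of 12 h was the lowest for the metal-responsive factor gene Mtf1 (0.839).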

How the results depend on the processing

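The count of genes past the threshold between 8 and 12 h of CLA stayed at 0 under each alternative and with any 1 array of the 8 and 12 h groups left out, as did the number of lists with a called member. The count for the change against LA was also 0 wherever it could be fitted, which leaves out the 2 alternatives that hold CLA arrays alone. Without 1 array the LA count ran from 0 to 5, the 5 without LA 8 h replicate 2. With the replicate number as a block in place of the array sets 175 genes (1.77%) had an unadjusted p under 0.05, and with neither 31 (0.313%), beside 532. The 7 CLA arrays alone with the replicate block, an alternative added after seeing the data, gave 588 (5.93%). The 2 pairs alone gave 800 (8.07%), with a lowest adjusted p of 0.596. Values as deposited gave 724, a lowest adjusted p of 0.0776 and a median of -0.24 over all genes, so differences there are relative to that shift. Leaving out 5 of the dim arrays gave 463 and leaving out those of high actin ratio 563, both added after seeing the data. The replicate block changed no call. Without the set term 15 of the 155 named genes changed sign, Zranb2 and Slc30a1 among them. The median of early genes ran from -0.63 to -0.12, of fatty acid and triglyceride synthesis from -0.62 to -0.11, and of ribosome biogenesis from -0.12 to 0.22 over 29 settings. The medians for insulin signalling and p53 targets changed sign in 16 and 13 of the 29. The 8281 genes under the intensity filter were tested only in the alternative without a filter, where 0 of 18194 passed.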
